A study of Mus musculus with 21 samples.

Results

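Single-nucleotide variants (SNVs) in the mucin genes and in hornerin (Hrnr) were read from the variant lists of mouse embryonic stem cells (ESCs) and of tumours. The members were all rows outside intergenic sequence whose gene name was Hrnr or Muc followed by a number. In all, 12 calls at 4 distinct sites met this rule, of 82571 gene-assigned calls at 16971 sites. All 12 came from ESC lists, which held 10856 gene-assigned calls at 2510 sites. The 8 tumour lists held 0 member rows among 71715 gene-assigned calls. Of the genes the name covers, only Hrnr (6 calls at 2 sites) and Muc19 (6 calls at 2 sites, written together with Smgc) were present. The set is therefore a description of these 2 loci rather than of mucins as a family.

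Mucins are large glycoproteins that form mucus or line the surface of epithelia. Their central part is a run of near-identical serine- and threonine-rich repeats, to which O-linked sugars are attached. Muc19 is a secreted, gel-forming mucin of the salivary glands, and Smgc, submandibular gland protein C, is read from the same locus. Hornerin belongs to the S100-fused proteins of the epidermal differentiation complex. It carries a calcium-binding S100 domain at its start and a long run of glycine- and serine-rich repeats encoded by its last exon, and it is deposited in the cornified layer of the skin. Genes of both kinds are hard to resolve with short reads, since a read from one repeat can be placed on another.

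The study addressed genome stability in ESCs kept in different media. It also took tumours from mice that had been generated from such cells by tetraploid complementation. ESC DNA was exome-captured, whereas for the tumours the series title names exome sequencing and its design text ATAC-seq, so their assay is not settled. All samples, controls included, were of the strain written C57BL6X129S6F1. ESCs in SL received 15% serum and leukaemia inhibitory factor (LIF, 1000 IU) on feeder cells. The 4 other media were serum-free N2B27 with 1000 IU LIF and 3 µM of the GSK3 inhibitor CHIR99021. 2iL added 1 µM of the MEK inhibitor PD0325901, A2iL 1.5 µM of the Src inhibitor CGP77675, and LCDM 2 µM each of the additives written Dim and Mih, all on feeder cells. 2iL-F was 2iL medium without feeder cells. Each of the 5 ESC conditions had 2 libraries, numbered 3 and 5 in the labels, and the labels do not say what these numbers stand for or whether the cultures were separate. The meaning of P9 and P14 in the tumour names is not stated either. Any test therefore measures the spread between these libraries only. The tumours were 2iL-P9, 3 A2iL-P9, A2iL-P14, 2 LCDM-P9 and 2iL-F-P9, and the sample names in the lists of 2iL-P9 and 2iL-F-P9 do not settle which is which. ESC calls were made against 1 control of mouse embryonic fibroblasts (MEFs), shared by all 10 lists, and tumour calls against wild-type blood. The ESC lists held 1762 to 1858 calls at a median depth of 54 to 72 reads, and the tumour lists 3634 to 10325 calls at 28 to 39 reads. LCDM-P9 tumour 2 stood apart with 3634 calls, the next shortest tumour list having 9752. Its median alternative fraction over gene-assigned calls was 0.8, against 0.431 to 0.438 in the 7 other tumours. No 2 calls of an ESC list lie within 10 kb of each other, so a site can be missing because a neighbouring call was kept.

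A Muc symbol is carried by 12 genes of the RefSeq gene list used here: Muc1, Muc2, Muc3, Muc3a, Muc4, Muc5ac, Muc5b, Muc6, Muc13, Muc15, Muc16 and Muc20. None of these 12 had a call inside its bounds in an ESC or a tumour list analysed here. The nearest ESC call was 154 to 785 kb away from the gene, the shortest distance being that of Muc1, a membrane mucin of epithelia. The nearest tumour call was 128 kb away (Muc1) or more. Muc19 is listed in the same table only as a synonym of Smgc, and both Muc19 sites lay inside the bounds of Smgc. How far these genes were covered by reads is not given in the lists, so an empty gene is not one shown to be unchanged. Over all genes, 571 had an exonic site in the ESC lists and 1751 in the tumour lists. The share of all RefSeq genes with a call was not computed, so the empty mucin genes are not shown to be unusual.

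The 4 sites were 2 missense changes in Hrnr and 2 intronic changes at Muc19. In Hrnr, H2249Y (chromosome 3, position 93329201, mm10, C to T, exon 3, C6745T of the coding sequence) exchanged a histidine for a tyrosine. The other Hrnr change, S1048N (chromosome 3, position 93325599, G to A, exon 3, G3143A), exchanged a serine for an asparagine. Both are numbered on NM_133698 from the first coding base and the initiator methionine. They lay 3602 bp apart in the genome and 3602 bp apart in the coding sequence, both in exon 3. At Muc19 the sites were a T to C change (chromosome 15, position 91858848) and an A to G change (position 91849172), 9676 bp apart. None of the 4 had a dbSNP identifier, and neither had any other ESC call. None was a stop gain or a splice site, none was called in all 10 ESC lists, and none was called in both an ESC and a tumour list.

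Each of the 10 ESC lists except that of 2iL-F library 5 held 1 or 2 of the sites. H2249Y was called in both 2iL libraries, in both A2iL libraries and in 2iL-F library 3. It was called in neither SL library and in neither LCDM library. Of the 5 lists without it, that of LCDM library 5 held S1048N, 3.602 kb away. The other 4 lists (SL 3, SL 5, LCDM 3 and 2iL-F 5) held no call within 10 kb. Reads at a site that was not called are not given in the lists, and whether the allele was present below the caller's threshold was not tested.

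The Muc19 T to C change was also called in 5 lists, those of SL 5, 2iL 3, LCDM 3, LCDM 5 and 2iL-F 3. LCDM was the only condition with the call in both of its libraries, and A2iL the only one with it in none. Of the 5 lists without it, that of SL library 3 held the A to G change 9.676 kb away, and 4 held no call within 10 kb. S1048N and the A to G change were each called in 1 list, LCDM 5 and SL 3. In 5 of the 9 lists without S1048N the H2249Y call lay within 10 kb, and in 5 of the 9 lists without A to G the T to C call did. At neither gene did a list hold both sites, which the spacing of the lists would not have allowed. Among all 2510 gene-assigned ESC sites, 34.3% were called in 1 list, 5.30% in 5 lists and 17.5% in all 10, so calls in 1 or 5 lists are found throughout these data.

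**Figure D1:**
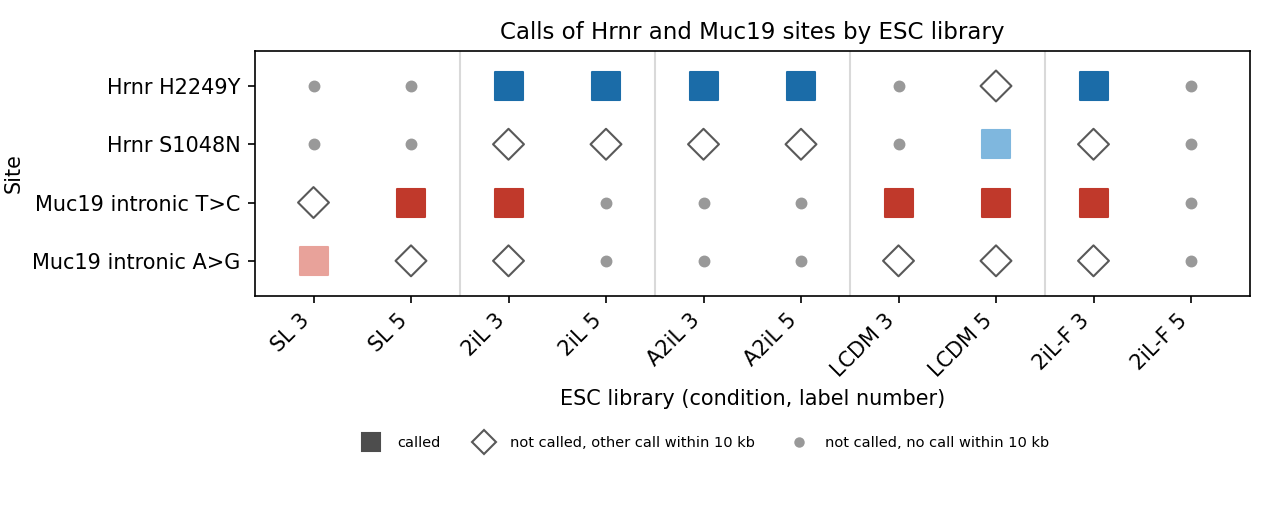
Calls of the 4 sites (rows) in the 10 ESC libraries (columns, by condition and label number). Filled squares are calls, open diamonds are libraries without the call but with another call within 10 kb, and grey dots are libraries with neither. H2249Y fills both 2iL and both A2iL columns, the Muc19 T to C change both LCDM columns, and 2iL-F 5 holds no call.

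The 4 sites differed in the kind of repeated sequence they lie in. Both Hrnr sites and the Muc19 A to G site lay in segmental duplications (the genomicSuperDups annotation, which lists long stretches with a near-identical copy elsewhere). That is 3 of 4 member sites, beside 31.3% of all gene-assigned ESC sites. The Muc19 T to C site lay outside segmental duplications but in a simple repeat, a run of a short unit. Both Hrnr sites had a duplication score, the identity of the copies as the annotation gives it, of 0.990999, and the Muc19 A to G site 0.974658.

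In all 3 cases the copy was listed inside the same gene. The copy listed for H2249Y starts at position 93323581, 5620 bp from the site, and that listed for S1048N at 93327757, 2158 bp from the site. Hrnr runs from 93319749 to 93333572 on chromosome 3 in the RefSeq table (GRCm38, the assembly of mm10), so both starts are within it. The listed starts lay 4176 bp apart. S1048N lay 2018 bp after the start of the copy listed for H2249Y, and H2249Y 1444 bp after that listed for S1048N. For the Muc19 A to G site the copy starts 323 bp away, at 91849495. A copy within the same gene was uncommon: of 785 gene-assigned ESC sites in segmental duplications, 12 sites in 7 genes had one (1.53%). Only 3 of these 12 were coding, H2249Y, S1048N and a synonymous change in the glucuronosyltransferase gene Ugt1a6b. The gene table matched 636 of the 785 sites, and the rest could not be counted as internal. Which repeat unit of the proteins each residue falls in was not analysed here.

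**Figure D2:**
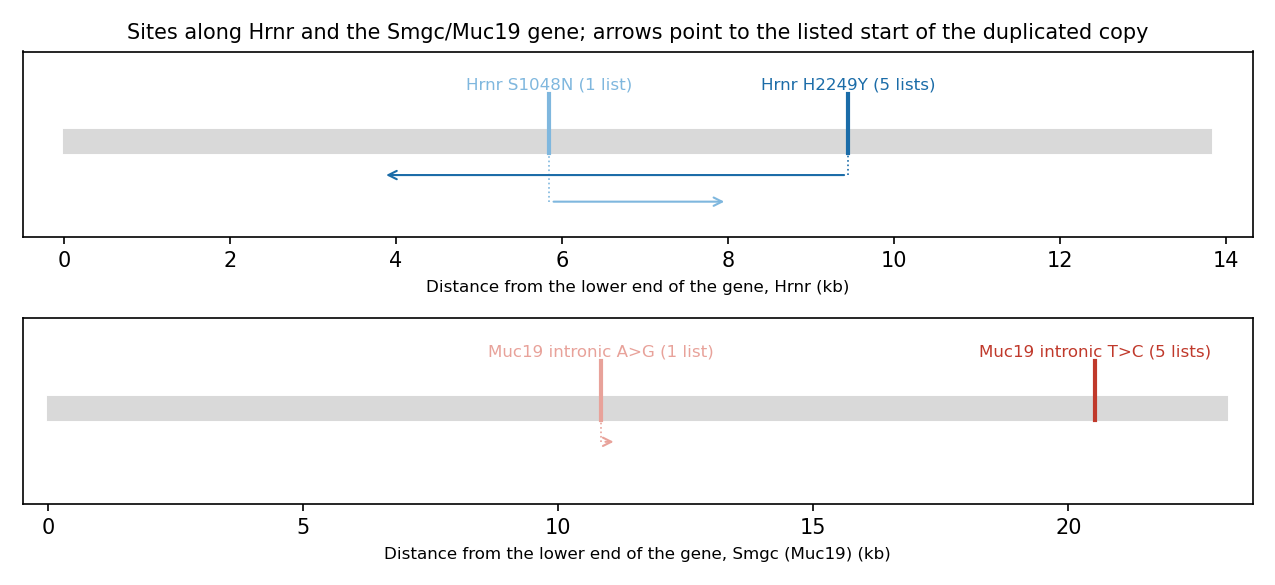
Positions of the sites along Hrnr and along the Smgc/Muc19 gene, in kb from the lower end of each gene (grey bar). Arrows point from a site to the listed start of its duplicated copy. All 3 arrows end inside the gene they start in, and the Muc19 T to C site has no arrow because it lies outside segmental duplications.

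H2249Y was read at a similar alternative-allele fraction, the share of reads with the changed base, in every library that had it. The values were 0.256 (23 of 90 reads) in 2iL 3, 0.263 (25 of 95) in 2iL 5, 0.215 (23 of 107) in A2iL 3, 0.232 (26 of 112) in A2iL 5 and 0.191 (17 of 89) in 2iL-F 3. The mean was 0.231 ± 0.0296 (SD, n = 5), and the 2iL libraries were the highest and the 2iL-F library the lowest. The 95% Wilson interval was widest in 2iL 3, from 0.177 to 0.354, and the 5 intervals had a range of values in common. Such intervals cover counting error only. The scatter of the fractions around their common value was 0.454 of that expected from counting (Pearson chi-square over its degrees of freedom), against a median of 0.585 over the 251 sites called in 5 ESC lists for which it could be computed. All reads of the 5 libraries together gave 114 of 493, or 23.1%, with a Wilson interval of 19.6 to 27.0%. The upper bounds of the 5 intervals ran from 0.285 to 0.360, so the reference base was the more frequent one in each library.

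The mean fraction was 0.260 ± 0.00495 (SD, n = 2) in 2iL and 0.224 ± 0.0120 (SD, n = 2) in A2iL. In limma over the 862 sites called in the 4 lists of these conditions, H2249Y differed by 0.28 ± 0.28 (log2 odds of the alternative allele, 2iL minus A2iL, standard error). The 95% interval ran from -0.38 to 0.95, and the Benjamini-Hochberg adjusted p was 0.941 in limma. Of the 862 sites 0 were called at an adjusted p under 0.05 (percent called 0), and 58 had an unadjusted limma p under 0.05. This comparison was added after the data were seen, because no member site was called in all 10 ESC lists or could enter the comparison of 5 conditions. There limma called 23 of 636 sites (3.62%) in fraction, and exact permutation called 0, with 72 at an unadjusted p under 0.05. Without LCDM 5 limma called 14. In depth over the control limma called 0 of 636, with 71 at an unadjusted p under 0.05, and exact permutation 0, with 64. In both, the 945 arrangements of the permutation give no p below 0.001058. After adjustment over 636 sites a call would need many sites at that floor, so neither permutation 0 decides on the sites. Without SL 3 or without SL 5 limma called 1 site in depth.

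S1048N had far less support. It was read in 3 of 35 reads of LCDM 5, a fraction of 0.086 with a Wilson interval of 0.0296 to 0.224, which overlaps the intervals of all 5 H2249Y calls. Its base quality was 33, the lowest of the 12 calls, against 35 to 37 for H2249Y. In LCDM 5 its depth exceeded that of 34.4% of the gene-assigned calls and its fraction exceeded that of 13.3%.

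The Muc19 T to C change rested on few reads throughout. It was read in 3 of 5 reads in SL 5, in 3 of 10 in 2iL 3, in 2 of 2 in LCDM 3, in 3 of 6 in LCDM 5 and in 3 of 6 in 2iL-F 3. The fractions ran from 0.3 to 1, and the highest was that of the library with the fewest reads. For LCDM 3 the Wilson interval ran from 0.342 to 1, and for 2iL 3 from 0.108 to 0.603, and the 5 intervals had values in common. Together they gave 14 of 29 reads, or 48.3%, with a Wilson interval of 31.4 to 65.6%. The A to G change was read in 6 of 17 reads of SL 3, a fraction of 0.353 (Wilson 0.173 to 0.587). Both Muc19 sites had base qualities of 37 in every call.

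**Figure D3:**
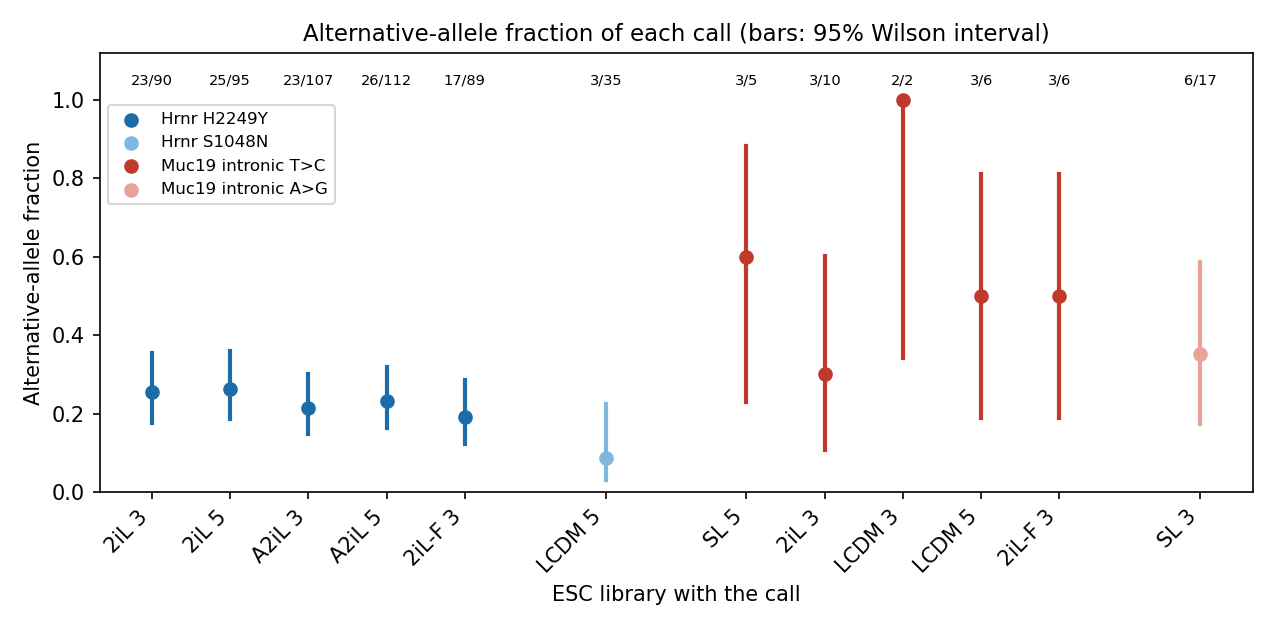
Alternative-allele fraction of each of the 12 calls (points) with its 95% Wilson interval (vertical bars), by site and library; alternative reads over depth are printed above. The 5 H2249Y values lie between 0.191 and 0.263 on 89 to 112 reads, whereas the 5 Muc19 T to C values spread from 0.3 to 1 on 2 to 10 reads.

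Depth at these sites was set against the MEF control next. No control read carried the alternative base at any of the 4 sites, so 0 of the 12 member calls had such a read. The share over all gene-assigned ESC calls was also low, at 6.07%, and 12 calls are too few to differ from it. Calls were made against this control, which by itself leaves few such reads. What the absence of such reads excludes depends on the control's depth. At H2249Y the control's depth field gave 64 reads, which allows an alternative share of up to 4.69%, and at S1048N 90 reads, which allows 3.33%. At the Muc19 sites it gave 11 reads (T to C) and 13 reads (A to G), which allow up to 27.3% and 23.1%. For H2249Y the interval of every library with the call lay above the limit of the control. These libraries were called against that same control, so the separation follows in part from the call. For S1048N the lower bound of 0.0296 lay below the limit of 3.33%, but above the 1.72% that the control's 174 summed allele reads allow. For Muc19 the limit of the control reached into the intervals of 2iL 3, SL 5, LCDM 5 and 2iL-F 3 for T to C and of SL 3 for A to G. With the 33 summed allele reads of the A to G site the limit was 9.09%, below the interval of SL 3. For T to C both control numbers were 11, so in these 4 libraries the interval and the limit of the control overlapped on either number. The difference from the control was not tested there. The 5 libraries with the call had a joint interval of 31.4 to 65.6%, above the limit of 27.3%. Only lists that kept the call enter this sum, and reads of the other libraries are not given. The sum is therefore high by selection and does not decide on a difference from the control.

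The control's 2 read numbers disagreed at the 3 duplicated sites. Its reads per allele summed to 174 at H2249Y against a depth field of 64, to 174 at S1048N against 90, and to 33 at the Muc19 A to G site against 13. These are 2.72, 1.93 and 2.54 times the depth field. At the Muc19 T to C site both gave 11. In the libraries the reads per allele summed to the depth at all 12 calls. Over the whole ESC set the control's 2 numbers were equal at 81.3% of sites outside segmental duplications and at 48.4% inside, and the allele sum was over 1.9 times the depth field at 0.574% and 6.41% of these sites. No source used here says which reads the caller counts in each field.

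The depth of H2249Y relative to the control turned with the field used. H2249Y had 89 to 112 reads per library, 1.39 to 1.75 times the control's depth field. Divided by each library's own median ratio over gene-assigned calls, the ratio was 1.48 to 1.53 in the 5 libraries, and in each it exceeded that of 84.5 to 91.0% of the gene-assigned calls. Against the summed allele reads of the control the same libraries were at 0.511 to 0.644, or 0.561 to 0.589 of the library's median ratio. The 5 libraries lay in a narrow range on either scale, above the library's median ratio on one and below it on the other. In the limma comparison of depth over the control field, 2iL minus A2iL was -0.03 ± 0.10 (log2, standard error) for H2249Y, with a 95% interval of -0.30 to 0.24 and an adjusted p of 0.952. In that comparison 0 of 862 sites were called (percent called 0, with 56 at an unadjusted limma p under 0.05), but 13 were called without 2iL 3 and 8 without 2iL 5.

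The other sites had fewer reads than H2249Y. S1048N had 35 reads in LCDM 5, 0.389 of the control's depth field and 0.459 of the library's median ratio. Against the control's summed allele reads it was at 0.201, or 0.246 of the median ratio, so S1048N lay below the library's median on both scales. The Muc19 T to C site had 2 to 10 reads, 0.182 to 0.909 of the control, and in each of its 5 libraries its depth exceeded that of at most 9.27% of the gene-assigned calls. The Muc19 A to G site had 17 reads, 1.31 times the control's depth field and 0.515 of its summed allele reads.

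**Figure D4:**
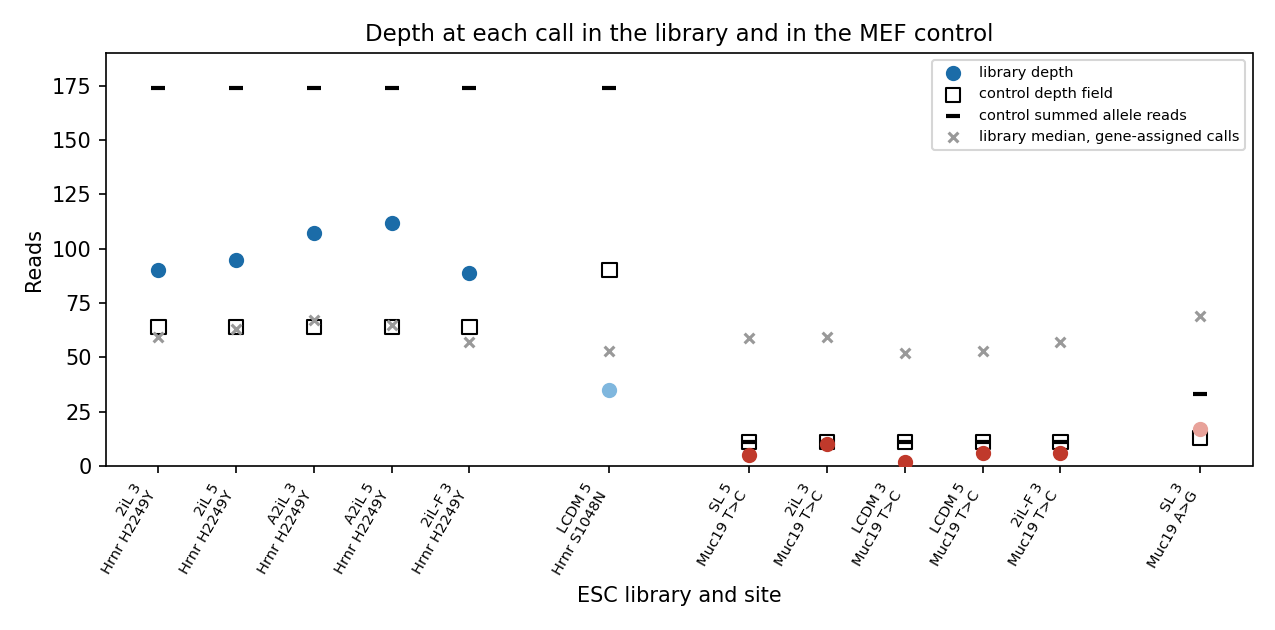
Depth at each of the 12 calls in the library (coloured points), with the MEF control's depth field (open squares), the control's summed allele reads (black dashes) and the library's median depth over gene-assigned calls (grey crosses). H2249Y lies between the control values of 64 and 174 in all 5 libraries, while the Muc19 T to C site lies at or below 10 reads.

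By distinct exonic sites, Hrnr with 2 was exceeded by 26 of the 571 genes with an exonic ESC site, and 96 genes had 2. Its median number of lists per site was 3. In both numbers 5 genes were level with Hrnr, and the first 3 by alphabet were Adh5, an alcohol dehydrogenase with 1 missense and 1 synonymous site, the gene model Gm15284 with 2 missense sites, and the olfactory receptor Olfr1250 with 1 of each. Of these, only Gm15284 also had both sites in segmental duplications. Over all 242 coding ESC sites in segmental duplications, 152 were missense.

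Genes that resemble or act on mucins and hornerin were counted from lists. The share of all genes with a call was not computed, so these counts of genes are description only. Of 16 S100-fused and epidermal differentiation genes, only Flg2, the filaggrin-2 gene of the same complex as Hrnr, had ESC calls. Its 2 sites were intronic, at positions 93205662 and 93216158 on chromosome 3, and both were called in all 10 lists. Fractions ran from 0.413 to 0.493 at the first and from 0.215 to 0.333 at the second, on 583 to 851 and 206 to 304 reads. The second site lay in a segmental duplication whose copy starts 10425 bp away in the same gene, and its control showed 437 summed allele reads against a depth field of 325. Neither site passed the limma test among the 5 conditions in fraction (adjusted p = 0.942 and 0.731). Hrnr was called in part of the lists only, Flg2 in all of them.

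Of 34 genes for mucin glycosylation and mucus, 2 had ESC calls, Gcnt1 and St6galnac1. The only coding one was Gcnt1 G334S (chromosome 19, position 17329360, exon 3), in the enzyme that starts core 2 branches on O-linked sugars. It was called in all 10 lists, at 0.41 and 0.281 in SL 3 and 5, 0.311 and 0.176 in 2iL, 0.344 and 0.372 in A2iL, 0.288 and 0.393 in LCDM, and 0.407 and 0.315 in 2iL-F. The MEF control held 0 alternative reads of 73. The value of 2iL 5 was the lowest, and both 2iL values lay below both A2iL and both 2iL-F values, while they overlapped those of SL and LCDM. The 5 conditions did not pass the limma F test (adjusted p = 0.714 over 636 sites, 0.507 to 0.979 over 16 settings). Between 2iL and A2iL the log2 odds of Gcnt1 G334S differed by -0.82 ± 0.40 (standard error), with a 95% interval of -1.74 to 0.11 and a limma adjusted p of 0.777. Without 2iL 3 this difference was -1.34 (limma adjusted p = 0.511), and without 2iL 5 it was -0.29 (limma adjusted p = 0.836). The 3 sites of St6galnac1, a sialyltransferase of mucin-type sugars, were intronic and called in 1 to 3 lists. Among 10 mucin-like glycoproteins, 1 intronic site of Sspo was called in 1 list.

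The tumours held 0 sites in Hrnr and the genes named Muc, but calls in genes that act on mucins. In 6 of the 34 glycosylation and mucus genes 32 sites were called, 15 of them coding (3 missense and 12 synonymous). Over all gene-assigned tumour sites 1123 of 3588 coding sites were missense. The 3 missense changes in the listed genes were E778Q in Fcgbp, a mucus protein of goblet cells, and A139V and L140M in St6galnac1. Each was called in 7 of 8 tumours, at median fractions of 0.426, 0.213 and 0.365, and none in LCDM-P9 tumour 2. Of the mucin-like glycoproteins Mcam and Otog had 10 sites, 2 of them coding and synonymous. Most tumour calls carry a dbSNP identifier (69919 of 71715 gene-assigned calls), and ESC calls none, so these numbers cannot be set against those of ESCs. Of the sites called in all 7 P9 tumours, 0 of 374 differed between A2iL-P9 and the other P9 tumours in fraction or in depth (limma, percent called 0, with 12 and 24 at an unadjusted p under 0.05). Exact permutation called 0 of 374 in each as well, with 9 and 10 at an unadjusted p under 0.05, but its 35 arrangements give no p below 0.0286, which leaves almost no room for a call after adjustment, so this 0 says nothing about the sites. No member and no site of these lists was among the 374, since none was called in LCDM-P9 tumour 2. Without that tumour, 7781 sites could be fitted, among them 32 of the listed genes, mucin-like glycoproteins included. In limma 0 of the 7781 were called in fraction or in depth. The lowest adjusted limma p of these 32 sites was 0.997 in fraction and 0.998 in depth.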

How the data were processed

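Per the submitters' processing notes, BWA, SAMtools and Picard were used with mm10; no version is recorded there, and no source used here names the SNV caller. According to the deposited headers, each line of the authors' lists gives, for a library and its control, genotype, reads per allele, mean base quality, depth, alternative fraction and somatic status, with other annotation columns for gene, consequence, segmental duplication, repeat and dbSNP. The members, the gene lists and the tests were chosen with earlier results of these data known. The rule for named sites took every member gene, and in full stop or splice changes, coding sites in all 10 ESC or at least 7 tumour lists, sites private to both libraries of 1 condition, coding sites private to 1 library, sites in both sets, companions with a coding site and the 3 genes most like the leading member gene. H2249Y, the Muc19 sites, Flg2 and Sspo fall outside it and were chosen after their values were seen. Members are described by counts and medians beside all gene-assigned calls, without a test. Across sites, limma 3.58.1 (R 4.3.3) was fitted to log2((alternative + 0.5)/(reference + 0.5)) and to log2 library depth over control depth, centred on each library's median, with Benjamini-Hochberg adjustment over all sites fitted. The fraction fit was also run on simulated reads with counting error only. That run does not show how the fit performs under the spread between libraries. Wilson intervals are at 95%, and a count of 0 is taken to allow 3 counts. Alternatives were depth, read, quality and duplication filters, the pseudocount, exact permutation and leaving out each library. RefSeq proteins and the mm10 genome were not used here, so coding sites were not classed by protein repeat and no sequence is shown. The planned comparisons held no member, so that of 2iL with A2iL was added after the data were seen.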

Additional observations from a re-analysis of the deposited data

Results flagged for a closer look

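A row just outside the naming rule lay at the Muc19 locus in a tumour. In LCDM-P9 tumour 2, Smgc R644L (chromosome 15, position 91860333, G to T, exon 17) was read in 88 of 90 reads, a fraction of 0.978 (Wilson 0.923 to 0.994), against 0 of 102 reads in its control, which allows up to 2.94%. It is a single list without a replicate, lies 1485 bp from the Muc19 T to C site and carries a dbSNP identifier. High fractions are usual in this list, whose median over gene-assigned calls was 0.8, against 0.431 to 0.438 in the 7 other tumours. The site was called in this tumour only and so entered no comparison across tumours. It is no member because the row names Smgc alone, although the RefSeq table gives Muc19 as a synonym of that gene.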

How the results depend on the processing

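The number of distinct ESC member sites, 4 over all calls, fell to 2 with at least 20 reads in library and control, to 2 with at least 5 alternative reads and to 1 outside segmental duplications, because these filters remove sites. It was 4 with no alternative read in the control and with base quality of at least 30. The protein-changing share could not be computed outside segmental duplications, and no tumour member share or median could be computed under any setting, as there was no tumour member. The median H2249Y depth over control was 1.48 with the depth field and 0.546 with the summed allele reads. The ESC fraction comparison of 5 conditions (23 of 636 sites) gave 15 sites outside segmental duplications, 0 by exact permutation (72 at an unadjusted p under 0.05), 14 without LCDM library 5, and 14 to 23 over all single libraries left out. With the replicate block it gave 18 sites. The 945 arrangements of the permutation left little room for a call after adjustment, so its 0 does not decide on these sites. No pairing of libraries by the numbers 3 and 5 was detected (correlations of deviations between conditions -0.103 to 0.0635 over 10 pairs). Such correlations cannot show that there was none. The paired fit is for that reason given only here. The ESC depth comparison gave 0 to 1 sites without single libraries. Between 2iL and A2iL, where settings were added after seeing the data, 0 sites differed in fraction, but 4 with at least 20 reads, 1 with pseudocount 1 and 6 with the replicate block, and 0 without single libraries. For depth the range was 0 to 13, with 13 without 2iL library 3 and 8 without 2iL library 5. The cause was not tested. H2249Y kept its direction and stayed above the threshold in all 8 settings of each comparison (limma, adjusted p 0.845 to 1.00 for fraction and 0.947 to 1.00 for depth). The tumour comparisons gave 0 sites in all settings. The Muc19 calls rest on 2 to 17 reads each.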

Other observations

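The pattern of lists of H2249Y was set beside those of all ESC sites, of which 252 were called in exactly 5 lists. Of the 862 ESC sites called in all 4 lists of 2iL and A2iL, 636 were called in all 10 lists. There were 7 of the 862 (0.812%), H2249Y among them, that were called in no list of SL or LCDM. The 636 sites called in all 10 lists could not show this pattern, which lowers the share. With 2iL-F 3 as the only further list there were 3 sites, H2249Y itself, a 3′ UTR site of Csf3r, the receptor of granulocyte colony-stimulating factor (chromosome 4, position 126043883, fractions of 0.06 to 0.128), and an intergenic site (chromosome 17, position 21284069, 0.118 to 0.25). The Muc19 T to C change shared its 5 lists with an intronic site of the kinase gene Cdkl2 (chromosome 5, position 92016927, 0.25 to 0.375 on 6 to 13 reads) and an intergenic site (chromosome X, position 75475215). These sites were chosen after their lists were seen. Copies listed inside the same gene were also found for sites of Gm5622 (3 sites in 5 to 9 lists), 1700128A07Rik (3 sites in 1 to 10 lists) and Ugt1a10 (1 site in 4 lists), none of them coding.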
